A study of Mus musculus with 6 samples.

Results

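A set of 10 genes of fatty acid activation and release was followed in mouse liver under a high-fat diet. They are the long-chain acyl-CoA synthetase genes Acsl1, Acsl3, Acsl4 and Acsl5, the medium-chain synthetase gene Acsm1, and the acyl-CoA thioesterase genes Acot1, Acot2, Acot3, Acot4 and Acot12. They were taken by gene symbol from the deposited expression matrix, where all 10 were found among 56534 genes or loci. Total liver RNA of C57BL/6 mice was sequenced in 6 libraries. The labels give 3 of them the genotype wild type (CON 1 to 3) and 3 the genotype CD36-/- (LKO 1 to 3). The series describes the deletion as specific to hepatocytes. All mice were fed for 16 weeks on chow with 60% of its energy from fat, so no library shows the livers on a standard diet. The sources used here do not give age, sex or the promoter that drives Cre. Whether each library came from its own animal is not stated, so p-values measure only the spread between libraries, which may be technical.

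Before a fatty acid that enters a cell can be used in metabolism, a synthetase joins it to coenzyme A, at the cost of ATP. The acyl-CoA can then be oxidised, stored as triglyceride or built into membranes, and CD36, which brings long-chain fatty acids across the plasma membrane, works upstream of this step. Acyl-CoA thioesterases act in the opposite direction, by hydrolysis. They cut acyl-CoA into free fatty acid and coenzyme A, and so help to set how much of each is present in the cytosol, mitochondria and peroxisomes. In liver, several of these genes are known targets of PPARA, the nuclear receptor that fatty acids activate. The comparison asks how the RNA of these enzymes differs when hepatocytes lack the transporter.

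The values are FPKM (fragments scaled by transcript length and by the number of mapped fragments), so levels can be compared between genes. Between 10614 and 11311 genes per library reached 1 FPKM, and the depth in reads is unknown. Cd36 itself measured 61.95, 26.49 and 19.66 FPKM across CON 1 to 3 and 2.73, 3.70 and 10.22 FPKM across LKO 1 to 3. The groups did not overlap for Cd36, and LKO 3 lay nearest to the CON range. With a log2 fold change of -2.50 (SE 0.51), Cd36 missed the threshold used below (limma, adjusted p = 0.163). LKO 3 also stood apart over all genes: its log2 values correlated with those of CON 3 at 0.976 and with those of LKO 2 at 0.934 (Pearson, across 11104 genes, which are not independent replicates). Hepatocyte markers were abundant in every library, with the summed FPKM of 10 genes such as Alb between 49564 and 78484. The summed levels of the other marker lists, from Kupffer cells to erythroid cells, overlapped between the groups except for 4 neutrophil genes (5.14 to 10.3 FPKM in CON and 1.65 to 4.71 FPKM in LKO). Ly6g, a defining neutrophil gene, was at 0 in all libraries, and the part of these cells in the results was not tested. No marker gene passed the test below, and of 6 fat cell markers Adipoq, Plin1 and Lep did not reach 0.1 FPKM. The other fat cell markers, Cidec, Fabp4 and Cfd, are not limited to fat cells. Cidec, a lipid droplet protein, was at 6.77 to 53.89 FPKM in CON and 20.34 to 71.59 FPKM in LKO, Fabp4 was at 3.18 to 11.22 FPKM and 12.46 to 14.59 FPKM, and Cfd was at 0.76 to 18.68 FPKM and 0.51 to 0.75 FPKM. The groups did not overlap for Fabp4, with LKO above, or for Cfd, with LKO below. Of the other markers this held for Apoa1, Alas2, Krt7 and Cd3e, with LKO above, and for Cyp2e1 and Ptprc, with LKO below. Over all genes 24.3% had LKO below without overlap, and the share with LKO above was not computed. Of the 10 hepatocyte markers 9 had a lower fitted value, against 71.6% of all genes, and Apoa1 a higher one. The part of these markers in the results was not tested. In whole liver RNA, fewer cells of a type and less RNA per cell cannot be told apart. Other properties of the libraries also differed, though not all of them along the groups. The log2 deviations of LKO 1 and LKO 2 from the mean of all libraries correlated with gene length at a Spearman rho of -0.33 and -0.30 across genes. Those of CON 1 to 3 correlated at 0.10 to 0.29, and LKO 3, at 0.21, lay inside this range. The major urinary protein genes, secreted products of hepatocytes, made up 6.22% to 22.1% of the summed FPKM in CON and 23.9% to 29.4% in LKO.

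Acsl1 RNA was the most abundant of the 10 in both groups, and Acsl3 RNA the least. In CON the order of mean levels was Acsl1 (587 FPKM), Acot1 (176), Acsm1 (157), Acsl5 (82.0), Acot12 (50.8), Acot3 (32.9), Acot4 (24.5), Acot2 (20.9), Acsl4 (6.39) and Acsl3 (3.17). Neighbours whose ranges over the CON libraries overlapped were Acot1 with Acsm1, Acot12 with Acot3, Acot3 with Acot4, and Acot4 with Acot2. Within each CON library Acot12 lay above Acot3, and Acot3 above Acot4. Acot1 with Acsm1 and Acot4 with Acot2 changed order between CON libraries, so their order is not fixed by these data. In LKO the first 5 genes kept this order, with Acsl5 and Acot12 now overlapping at mean levels of 44.9 and 44.4 FPKM. Acot3 moved from the sixth place to the eighth, at 10.2 FPKM, below Acot2 (13.4) and Acot4 (13.3), with which it overlapped. The 10 genes together summed to 1145, 1138 and 1137 FPKM in the CON libraries and to 1049, 783 and 1043 FPKM in the LKO libraries. The summed FPKM of all genes itself ran from 831928 to 976871 in CON and from 959442 to 1271880 in LKO. The sums of the 10 are therefore not parts of a common total.

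**Figure D1:**
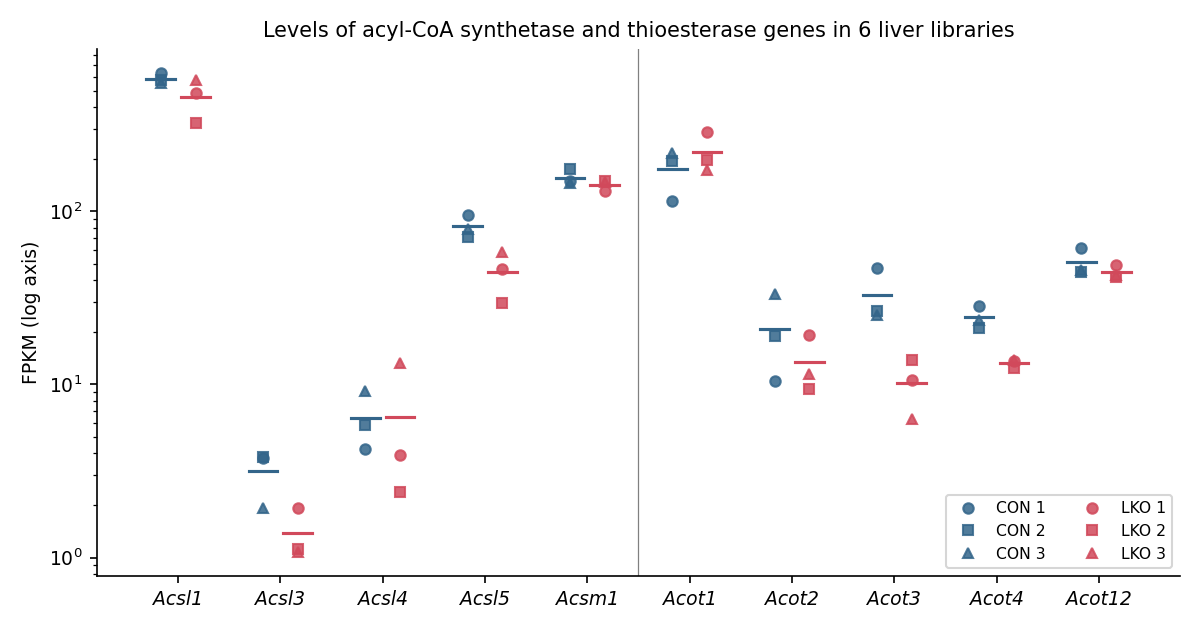
FPKM of the 10 genes (log axis) in each of 6 liver libraries, CON in blue and LKO in red, with bars at the group means. The LKO libraries lie below all CON libraries for Acsl5, Acot3 and Acot4, while Acot1 has the LKO 1 library (288 FPKM) above every CON library.

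LKO was compared with CON by limma, a linear model fitted to the 11104 genes that averaged 1 FPKM or more, and all 10 genes entered it. Fold changes are differences of log2(FPKM + 1), which understate the change of low genes. None of the 10 passed at an adjusted p under 0.05, where 0.00901% of all genes were called lower and 0% higher. Across all genes the median log2 fold change was -0.23 on the deposited scale and 0.01 after median-ratio scaling of the libraries, so a value near -0.23 is that of the typical gene here. Rescaling the libraries after removal of mitochondrial genes gave -0.46, and removal of the major urinary protein genes as well gave -0.26. A total of 9 of the 10 had a lower fitted value in LKO, against 71.6% of all genes. After median-ratio scaling 6 of the 10 did, against 48.9%. Acsl4 counts among the 9 by its mean of log2 values, while its mean FPKM was not lower in LKO. At an unadjusted p under 0.05, 4 of the 10 were lower (Acsl3, Acsl5, Acot3 and Acot4) and 0 higher, where 18.9% of all genes were lower and 3.25% higher. After that scaling 3 of the 10 were lower, against 7.96%, since Acsl3 no longer reached it. The groups were separate, with LKO below, for 3 of the 10 (Acsl5, Acot3 and Acot4), against 24.3% of all genes, and after scaling for the same 3, against 11.1%. The median of the 10 log2 fold changes was -0.46, against -0.23 for all genes, and -0.17 against 0.01 after median-ratio scaling. Since LKO 3 stood apart, the fit was repeated without it, and 3 of the 10 then passed as lower (Acsl5, Acot3 and Acot4), against 18.9% of all genes. Without LKO 3 and with median-ratio scaling 2 of the 10 passed as lower (Acsl5 and Acot4), against 8.28%, and with the length trend removed 0 of the 10, against 5.94%. With all libraries weighted by how far they scatter (array weights, lowest for LKO 3), the same 3 as without LKO 3 passed, against 21.6% of all genes. LKO 3 was singled out, and weighted lowest, from these same values, in which it was the LKO library nearest to CON. Passing without it or with these weights is therefore not separate support.

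Among the 5 synthetase genes, only Acsl5 had groups that did not overlap, against 24.3% of all genes (11.1% after median-ratio scaling). ACSL5 is an enzyme of mitochondria and endoplasmic reticulum that activates long-chain fatty acids, and its gene is a known target of SREBP1. Acsl5 RNA (ENSMUSG00000024981) measured 95.32, 71.29 and 79.42 FPKM across CON 1 to 3 and 46.75, 29.39 and 58.45 FPKM across LKO 1 to 3. The highest LKO value lay below the lowest CON value, and LKO 2 was the lowest. Mean FPKM was 82.0 ± 12.2 for CON against 44.9 ± 14.6 for LKO (SD, n = 3 each), a difference of 45.3%. The log2 fold change of -0.90 (SE 0.27, 95% interval -1.52 to -0.28) did not pass over all genes (limma, adjusted p = 0.179). Without LKO 3 it was -1.11 and passed (limma, adjusted p = 0.0258). With LKO 3 left out and the libraries scaled by median ratio, Acsl5 was at -0.75 (limma, adjusted p = 0.0385), and with the trend of the libraries with gene length removed at -0.73 (adjusted p = 0.0571).

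Acsl1 encodes the main long-chain synthetase of hepatocytes, which serves both oxidation and triglyceride synthesis. Its RNA (ENSMUSG00000018796) measured 629.92, 575.06 and 554.54 FPKM across CON 1 to 3 and 484.77, 324.38 and 575.91 FPKM across LKO 1 to 3. LKO 1 and LKO 2 lay below the CON range and LKO 3 inside it. Of the 100-base stretches in its annotated transcripts, 8.45% also occur in the predicted gene Gm45244, so reads there could have been counted for either. The log2 fold change of -0.38 (SE 0.24, adjusted p = 0.348, limma) was near that of all genes and became -0.08 after median-ratio scaling. Without LKO 3 it was -0.56 (limma, adjusted p = 0.0944), and without LKO 2 it was -0.15.

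Because Acsl1 is so abundant, it made up 85.9%, 87.7% and 86.0% of the summed FPKM of the Acsl genes measured here in CON 1, CON 2 and CON 3. It made up 90.2%, 90.8% and 88.8% in LKO 1, LKO 2 and LKO 3. Acsl5 took 10.9% to 13% in the CON libraries and 8.70%, 8.23% and 9.01% in the LKO ones. Groups did not overlap in either share, with LKO 3 on the same side as the other LKO libraries. The shares of Acsl1 and Acsl5 nearly add up to the whole, so they are the same observation. A common scaling factor cancels in such shares, but the trend with gene length does not, and the genes differ in length (5676 bases for Acsl1 and 4243 for Acsl5). The ratio of Acsl1 to Acsl5 was 6.61 to 8.07 in CON and 9.85 to 11.0 in LKO. These shares were chosen after the values were seen and are given without a test.

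Acsl3 and Acsl4 were the low members of the group. ACSL3 sits on the endoplasmic reticulum and on growing lipid droplets. Its RNA (ENSMUSG00000032883) measured 3.78, 3.80 and 1.93 FPKM across CON 1 to 3 and 1.94, 1.12 and 1.08 FPKM across LKO 1 to 3. CON 3 lay among the LKO values, so the groups overlapped, by the last decimal of the rounded values. The ratio of the means was 2.30, and Acsl3, with a log2 fold change of -0.79 (SE 0.26), missed the threshold (limma, adjusted p = 0.187). ACSL4 prefers arachidonic acid and other polyunsaturated fatty acids. Acsl4 RNA (ENSMUSG00000031278) measured 4.25, 5.80 and 9.12 FPKM across CON 1 to 3 and 3.89, 2.40 and 13.25 FPKM across LKO 1 to 3. The highest and the 2 lowest of these 6 values were all LKO libraries, with LKO 3 the highest. Its log2 fold change of -0.20 (SE 0.51, 95% interval -1.39 to 0.98, adjusted p = 0.818, limma) turned to 0.035 after median-ratio scaling and was -0.80 without LKO 3.

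Acsm1 encodes a mitochondrial synthetase for medium-chain fatty acids. Its RNA (ENSMUSG00000033533) measured 149.66, 175.09 and 146.23 FPKM across CON 1 to 3 and 130.76, 149.15 and 147.53 FPKM across LKO 1 to 3. The groups overlapped and the spread was small, with means of 157 ± 15.8 and 142 ± 10.2 FPKM (SD, n = 3 each). The fitted log2 value of -0.14 (SE 0.17, 95% interval -0.53 to 0.25, adjusted p = 0.615, limma) turned to 0.16 after median-ratio scaling.

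The thioesterase genes Acot1 to Acot4 are close relatives that lie next to each other on mouse chromosome 12, in the order Acot2, Acot1, Acot4, Acot3, followed by Acot5, with a predicted gene between Acot1 and Acot4 (RefSeq, GRCm38.p6). Their products act in different compartments: ACOT1 in the cytosol, ACOT2 in mitochondria, ACOT3 and ACOT4 in peroxisomes. Because reads from near-identical stretches can be assigned to the wrong copy, a stretch of 90 bases from the middle of the aligned coding sequences is shown (bases 574 to 663 of the Acot1 coding sequence, GENCODE M21 transcripts, 5′ to 3′, capitals mark bases that differ from Acot1).
Acot1: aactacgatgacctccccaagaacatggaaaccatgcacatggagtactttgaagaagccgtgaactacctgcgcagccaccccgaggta
Acot2: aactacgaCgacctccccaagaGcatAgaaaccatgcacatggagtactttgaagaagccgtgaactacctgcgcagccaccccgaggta
Acot3: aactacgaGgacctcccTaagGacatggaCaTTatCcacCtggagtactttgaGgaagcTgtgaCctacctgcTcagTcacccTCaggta
Acot4: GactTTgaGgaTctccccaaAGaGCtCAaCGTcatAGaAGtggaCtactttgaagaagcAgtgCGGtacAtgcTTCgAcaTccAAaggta
In this stretch Acot2 differed from Acot1 at 3 bases, Acot3 at 15 and Acot4 at 31. Over the aligned coding sequence the identity with Acot1 was 95.3% for Acot2, 83.9% for Acot3 and 72.8% for Acot4. The longest run without a difference was 256 bases between Acot1 and Acot2, 203 between Acot1 and Acot3, and 111 between Acot3 and Acot4. Of all distinct 100-base stretches in the annotated transcripts of a gene, 17.1% for Acot2, 15.9% for Acot3, 12.4% for Acot1 and 8.24% for Acot4 also occurred in a transcript of another gene. Those of Acot2 were all shared with Acot1, and nearly all those of Acot4 with the predicted gene 4732463B04Rik. The levels of Acot1 and Acot2 in particular are therefore uncertain to the extent that their reads were split between them.

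Acot3 had the lowest log2 fold change of the 10 genes. ACOT3 releases long-chain fatty acids from acyl-CoA in peroxisomes, the organelle that shortens very long chains. Acot3 RNA (ENSMUSG00000021228) measured 47.00, 26.54 and 25.14 FPKM across CON 1 to 3 and 10.62, 13.81 and 6.29 FPKM across LKO 1 to 3. The highest LKO value was below the lowest CON value, CON 1 stood above the other CON libraries, and LKO 3 was the lowest of all. Mean FPKM was 32.9 ± 12.2 for CON against 10.2 ± 3.77 for LKO (SD, n = 3 each), a 3.21-fold difference. The log2 fold change of -1.59 (SE 0.33, 95% interval -2.36 to -0.83) did not pass (limma, adjusted p = 0.163), and lay among the lowest 0.603% of all genes. It was -1.31 after median-ratio scaling. Without LKO 3 it was -1.31 and passed (limma, adjusted p = 0.028). Without LKO 3 it did not pass with median-ratio scaling (-0.96, adjusted p = 0.0683) or with the length trend removed (-0.96, adjusted p = 0.0826).

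Acot4, next to Acot3, had a small spread within LKO. ACOT4 is the peroxisomal thioesterase that also cleaves succinyl-CoA, a product of dicarboxylic acid breakdown. Its RNA (ENSMUSG00000052392) measured 28.35, 21.33 and 23.73 FPKM across CON 1 to 3 and 13.69, 12.48 and 13.87 FPKM across LKO 1 to 3. The groups did not overlap, and LKO 3, the highest LKO library for Acsl5, lay close to LKO 1. Mean FPKM was 24.5 ± 3.57 for CON against 13.3 ± 0.756 for LKO (SD, n = 3 each), a difference of 45.5%. With a log2 fold change of -0.82 (SE 0.17, 95% interval -1.22 to -0.42), Acot4 missed the threshold (limma, adjusted p = 0.163). With a deposited length of 6203 bases Acot4 is the longest of the 10 genes, and with the length trend of the libraries removed its value was -0.49. Without LKO 3 it was -0.85 (limma, adjusted p = 0.0248). Without LKO 3 it was -0.50 with median-ratio scaling (adjusted p = 0.042) and -0.40 with the length trend removed (adjusted p = 0.0732).

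Acot1, whose gene lies between those of Acot2 and Acot4, did not share this pattern. ACOT1 is the cytosolic enzyme, strongly induced in liver by fasting and by fatty acids. Acot1 RNA (ENSMUSG00000072949) measured 114.69, 195.50 and 217.84 FPKM across CON 1 to 3 and 288.05, 199.66 and 172.51 FPKM across LKO 1 to 3. CON 1 was the lowest and LKO 1 the highest, and the other libraries of the groups overlapped. The log2 fold change of 0.34 (SE 0.30, 95% interval -0.36 to 1.03, adjusted p = 0.483, limma) was the only positive one among the 10. It was 0.058 without CON 1 and kept this sign in all 19 alternative analyses, between 0.055 and 0.87.

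Acot2 RNA (ENSMUSG00000021226), for the mitochondrial enzyme, measured 10.49, 19.13 and 33.19 FPKM across CON 1 to 3 and 19.39, 9.39 and 11.43 FPKM across LKO 1 to 3. CON 1 was the lowest and CON 3 the highest of the CON libraries, and the groups overlapped. On the log2 scale its fold change of -0.53 (SE 0.41, adjusted p = 0.435, limma) became -0.25 after median-ratio scaling. It was -0.93 without CON 1 and -0.14 without CON 3.

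Within the cluster, the share of Acot1 was higher in every LKO library than in any CON library. Acot1 made up 57.2%, 74.5% and 72.6% of the summed FPKM of Acot1 to Acot4 in CON 1, CON 2 and CON 3. In LKO 1, LKO 2 and LKO 3 it made up 86.8%, 84.8% and 84.5%. The peroxisomal pair Acot3 and Acot4 together made up 37.6%, 18.2% and 16.3% in the CON libraries and 7.33%, 11.2% and 9.88% in the LKO libraries. The groups did not overlap for either share, and CON 1 was the library farthest from the others. The sum itself averaged 254 ± 50.2 FPKM for CON against 257 ± 66.5 FPKM for LKO (SD, n = 3 each). The ratio of Acot1 to Acot3 was 2.44, 7.37 and 8.67 in the CON libraries and 27.1, 14.5 and 27.4 in the LKO libraries. The trend with gene length does not cancel in these shares. The deposited lengths were 2613 bases for Acot1, 2196 for Acot2, 3431 for Acot3 and 6203 for Acot4. These shares were chosen after the values were seen, rest on reads that the copies partly share, and are given without a test.

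**Figure D2:**
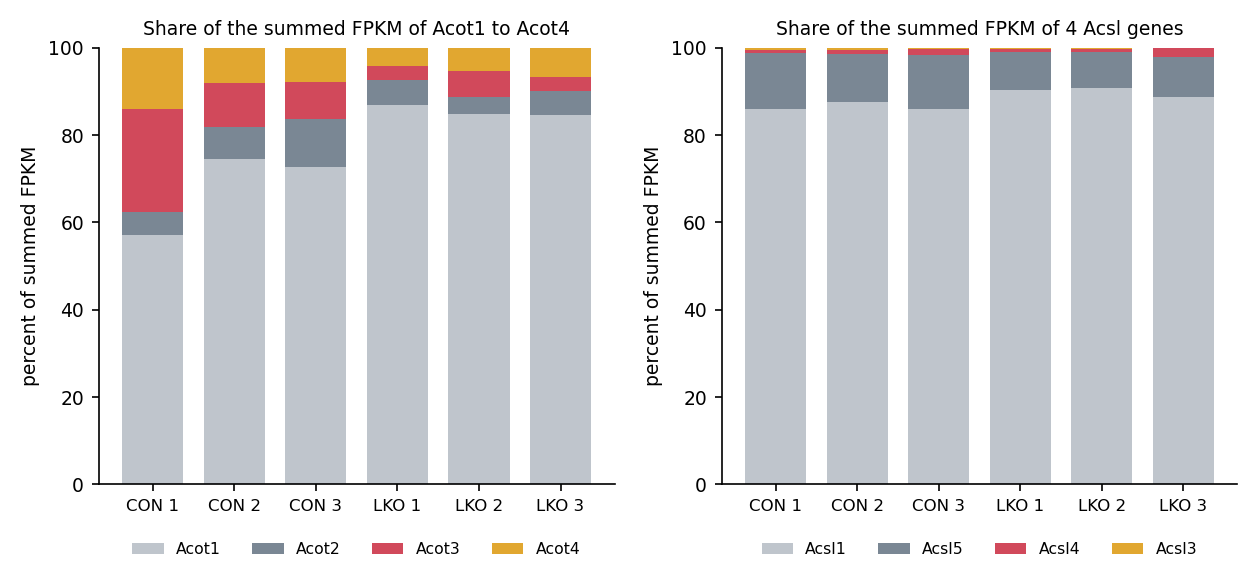
Stacked bars of the share of each gene in the summed FPKM of Acot1 to Acot4 (left) and of the Acsl genes (right), in percent, for each library. Acot1 takes 84.5% to 86.8% in the LKO libraries and 57.2% to 74.5% in the CON libraries, and Acsl5 takes 8.23% to 9.01% and 10.9% to 13% in the same groups.

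The regions before the start sites of Acot3 and Acot4, the pair with LKO below CON, are shown beside that of Acot1, which did not share the pattern (RefSeq, GRCm38.p6, plus strand, 250 bases before the start site, 5′ to 3′). Capitals mark AGGTCA or its reverse complement, the half-site that PPARA and other nuclear receptors bind. PPARA binds as a pair with RXR to 2 such half-sites with 1 base between them.
Acot1 (chr12:84009252-84009501): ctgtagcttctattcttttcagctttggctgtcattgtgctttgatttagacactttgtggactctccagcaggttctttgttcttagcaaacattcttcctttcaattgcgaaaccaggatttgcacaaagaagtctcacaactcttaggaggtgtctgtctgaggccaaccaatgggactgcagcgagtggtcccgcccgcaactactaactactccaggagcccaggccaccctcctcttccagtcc
Acot4 (chr12:84038129-84038378): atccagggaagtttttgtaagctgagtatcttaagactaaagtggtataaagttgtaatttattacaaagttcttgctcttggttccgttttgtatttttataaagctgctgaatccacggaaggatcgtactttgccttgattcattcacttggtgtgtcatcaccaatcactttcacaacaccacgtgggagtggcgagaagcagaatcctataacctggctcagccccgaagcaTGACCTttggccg
Acot3 (chr12:84051894-84052143): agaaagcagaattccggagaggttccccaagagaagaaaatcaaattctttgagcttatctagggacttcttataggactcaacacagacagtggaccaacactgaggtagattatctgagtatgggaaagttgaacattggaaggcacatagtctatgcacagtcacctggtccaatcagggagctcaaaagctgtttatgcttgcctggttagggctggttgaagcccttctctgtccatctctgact
All 10 genes were found in the promoter table, which runs from 250 bases before to 50 after a start site and holds a second start site each for Acsl1 and Acot3. The half-site, searched on both strands, occurred in 4 of the 10 genes (Acsm1, Acot3, Acot4 and Acot12), against 16.3% of all 32851 promoters. In Acot4 it lay 13 to 8 bases before the start site, and in Acot3 19 to 24 bases after the first start site, outside the stretch shown. No match was present in this window of Acot1, Acot2 or the Acsl genes. The double site AGGTCANAGGTCA, with up to 3 mismatches, occurred in 7 of the 10 genes, against 24.6% of all promoters. Both counts are per gene, over either start site of Acsl1 and Acot3, while the shares are per promoter, so the measures differ. The best matches were those of Acot12, with 1 mismatch, and Acot4, with 2. Both kinds of match can overlap, and they describe these letters only. The stretches shown were chosen by the RNA values. Acsm1 and Acot12, with a half-site, had overlapping groups, and Acsl5, without one, did not. Any relation of the matches to the RNA levels was not tested.

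Acot12 lies on chromosome 13, outside the cluster of Acot1 to Acot4, and its cytosolic product hydrolyses acetyl-CoA. Its RNA (ENSMUSG00000021620) measured 61.79, 44.69 and 45.93 FPKM across CON 1 to 3 and 49.02, 41.56 and 42.75 FPKM across LKO 1 to 3. The groups overlapped. Its log2 fold change of -0.18 (SE 0.19, 95% interval -0.61 to 0.26, adjusted p = 0.561, limma) turned to 0.12 after median-ratio scaling.

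By library, LKO 2 was the lowest of the LKO libraries for 6 of the 10 genes, and for 55.3% of all genes tested. It lay below the CON range for 8 of the 10 (62% of all genes), LKO 1 for 6 (51% of all genes) and LKO 3 for 5 (40.7% of all genes), the same order of libraries as over all genes. Mitochondrial genes made up 10.1% of the summed FPKM in LKO 2 and 3.88% to 6.18% in the other libraries. With these genes removed and the libraries rescaled, 0 of the 10 passed. LKO 2 also had the lowest median of all genes relative to the CON mean, at -0.38 on the log2 scale, against -0.21 in LKO 1 and -0.11 in LKO 3. The part of this scale difference in the values of single genes was not tested beyond the scaled values given.

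**Figure D3:**
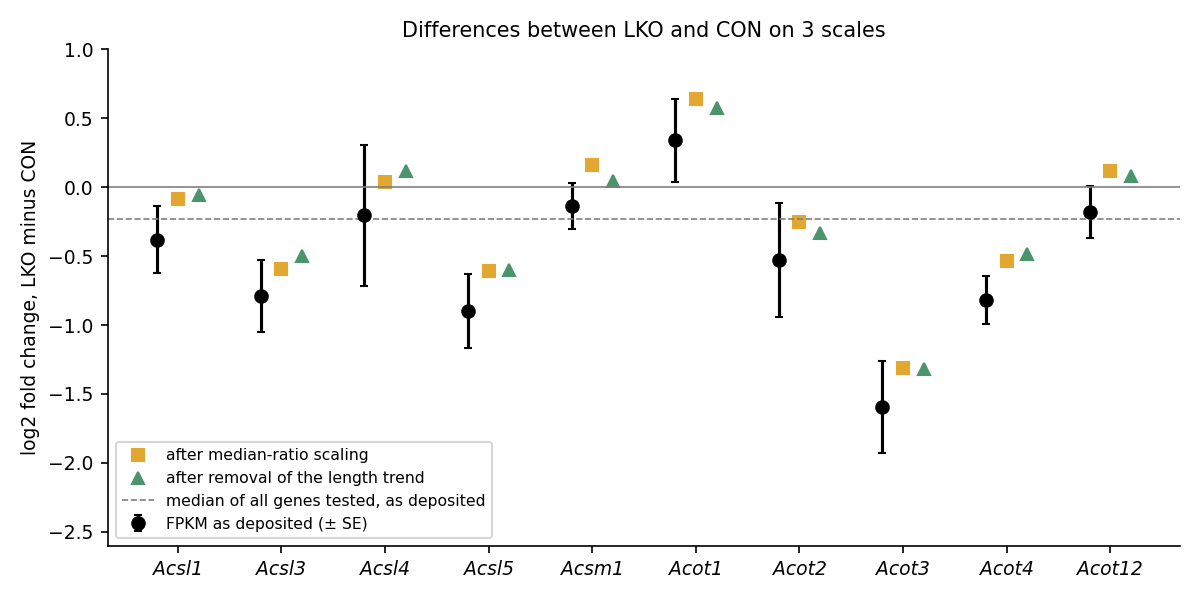
Log2 fold change (LKO minus CON) of the 10 genes on the deposited scale with its standard error (black), after median-ratio scaling (yellow) and after removal of the length trend (green). Acot3 is at -1.59, -1.31 and -1.32 on these scales, Acot1 is above 0 on all of them, and Acsl4, Acsm1 and Acot12 cross 0.

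Other genes that make acyl-CoA had lower fitted values as well. Of a list of 20 other synthetases, which holds among others the Acss and Acsf genes, further Acsm genes and the fatty acid transport proteins of the Slc27a family, 11 could be tested. All 11 had a lower fitted value, against 71.6% of all genes, and 10 had after median-ratio scaling. None passed over all genes. At an unadjusted p under 0.05, 8 of the 11 were lower, against 18.9% of all genes, and 5 after scaling, against 7.96%. Their median log2 fold change was -0.81, against -0.23 for all genes. These counts cover only genes that passed the filter, and the list was chosen with earlier results of these data known. They are descriptive only. The list members left out by the filter were low and went both ways. Slc27a3 averaged 0.18 FPKM in CON and 0.65 FPKM in LKO, without overlap, and Acss1 averaged 0.103 and 0.057 FPKM.

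The groups did not overlap, with LKO below, for 8 of the 11, against 24.3% of all genes, and after median-ratio scaling for 5, against 11.1%. The 4 genes with the smallest p are given here. Acss3, a mitochondrial synthetase for propionate, measured 14.91, 5.29 and 3.31 FPKM across CON 1 to 3 and 0.93, 0.40 and 1.06 FPKM across LKO 1 to 3 (log2 fold change -2.09, SE 0.45, adjusted p = 0.165, limma). CON 1 stood far above the other CON libraries, as it did for Acot3. The LKO mean of Acss3, 0.797 FPKM, lay under the filter of 1 FPKM, so Acss3 was tested only because of its CON values. Acsm3, a medium-chain synthetase of the same family as Acsm1, measured 76.82, 63.28 and 35.20 FPKM across CON 1 to 3 and 17.83, 15.53 and 26.83 FPKM across LKO 1 to 3 (log2 fold change -1.46, SE 0.32, adjusted p = 0.165, limma). Acsm5, another of that family, averaged an FPKM of 33.1 ± 6.92 for CON against 17.8 ± 2.91 for LKO (SD, n = 3 each). Acss2, the cytosolic acetyl-CoA synthetase, was at 20.3 ± 5.66 FPKM for CON and 8.58 ± 0.489 FPKM for LKO. On the log2 scale Acsm1 lay at -0.14, where Acsm3 and Acsm5 were at -1.46 and -0.85, and the difference between these genes was not tested.

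Of 16 other thioesterases and related acyltransferases, 11 were tested. A total of 10 had a lower fitted value, against 71.6% of all genes, and 8 did after median-ratio scaling, against 48.9%. None passed. At an unadjusted p under 0.05, 5 of the 11 were lower, against 18.9% of all genes, and 1 after scaling, against 7.96%. Hibch, the mitochondrial hydrolase of valine breakdown, had the smallest p and averaged an FPKM of 38.6 ± 5.19 for CON against 24.0 ± 4.24 for LKO (SD, n = 3 each). Acnat1 and Baat, whose products join fatty acids or bile acids to amino acids, had log2 fold changes of -0.52 and -0.50, and the palmitoyl-protein thioesterase gene Ppt1 one of -0.56. The neighbours of the chromosome 12 cluster, Acot5 and Acot6, were at 0.08 FPKM or less and at 0.21 to 0.54 FPKM and were not tested. The peroxisomal Acot8, named after its values were seen, measured 29.14, 30.80 and 34.10 FPKM across CON 1 to 3 and 34.86, 26.07 and 30.23 FPKM across LKO 1 to 3, with overlapping groups.

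Of the genes that bind or move acyl-CoA, 7 of 8 were tested, and 4 of the 7 had a lower fitted value, against 71.6% of all genes. None passed, and 1 (Acbd5) was lower at an unadjusted p under 0.05, against 18.9% of all genes. On the deposited scale neither count was above its background. Acbd5, a peroxisomal membrane protein that binds acyl-CoA, measured 71.07, 54.99 and 57.49 FPKM across CON 1 to 3 and 32.98, 28.14 and 39.97 FPKM across LKO 1 to 3 (log2 fold change -0.85, SE 0.20, adjusted p = 0.165, limma). Groups were separate for Acbd3, Acbd4 and Acbd5, with LKO below, in 3 of the 7 tested genes, against 24.3% of all genes, and after median-ratio scaling in 1, against 11.1%. Next by p came Acbd3, Acbd4 and Scp2, with log2 fold changes of -0.47, -0.39 and -0.43, which after median-ratio scaling were at -0.23, -0.10 and -0.13.

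The known target genes of PPARA, as a list, lay near the background in their counts of lower fitted values. Of 25 tested, 19 had a lower fitted value (76.0%, against 71.6% of all genes), and 13 did after median-ratio scaling, against 48.9%. None passed, and 5 were lower and 0 higher at an unadjusted p under 0.05, where 18.9% of all genes were lower and 3.25% higher. After median-ratio scaling 0 were lower, against 7.96% of all genes, and 2 higher. The groups were separate, with LKO below, for 8 of the 25 (32%, against 24.3% of all genes), and after scaling for 3, against 11.1%. After scaling LKO lay above CON without overlap for 4 of the 25. For the scaled counts of higher genes, the share over all genes was not computed. Their median log2 fold change was -0.29, against -0.23 for all genes, and -0.02 against 0.01 after scaling. Cyp4a14, the omega-hydroxylase often used as a readout of PPARA, averaged an FPKM of 1119 ± 75.3 for CON against 709 ± 139 for LKO (SD, n = 3 each). Acadm, the medium-chain acyl-CoA dehydrogenase, was at 316 ± 40.6 FPKM for CON and 197 ± 58.6 FPKM for LKO. Next by p came Hadha of mitochondrial beta-oxidation, with a log2 fold change of -0.88 and LKO 3 inside the CON range, and Vnn1, a pantetheinase gene, at -0.49. Ppara itself measured 101.10, 92.34 and 111.15 FPKM across CON 1 to 3 and 75.67, 55.81 and 69.97 FPKM across LKO 1 to 3, without overlap. Its log2 fold change was -0.60 (SE 0.18, adjusted p = 0.18, limma), and -0.30 after median-ratio scaling. Of the 9 nuclear receptors and coactivators of the last list, 7 were tested and all had a lower fitted value, against 71.6% of all genes, and 6 did after median-ratio scaling, against 48.9%. None passed, and 2 (Pparg and Ppara) were lower at an unadjusted p under 0.05, against 18.9% of all genes, and 1 (Pparg) after scaling, against 7.96%. The log2 fold change was -1.42 for Pparg, the PPAR of fat storage, -0.82 for Rxra, the partner of the PPARs, and -0.29 for Ppard. Pparg was low in all libraries, at 4.11 to 6.58 FPKM in CON and 1.22 to 1.58 FPKM in LKO. For Rxra, LKO 3 (140.38 FPKM) lay inside the CON range of 119.06 to 143.32 FPKM. Lpin1 counts as lower by a log2 fold change of -0.03, while its mean FPKM was 15.7 in CON and 28.1 in LKO.

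**Figure D4:**
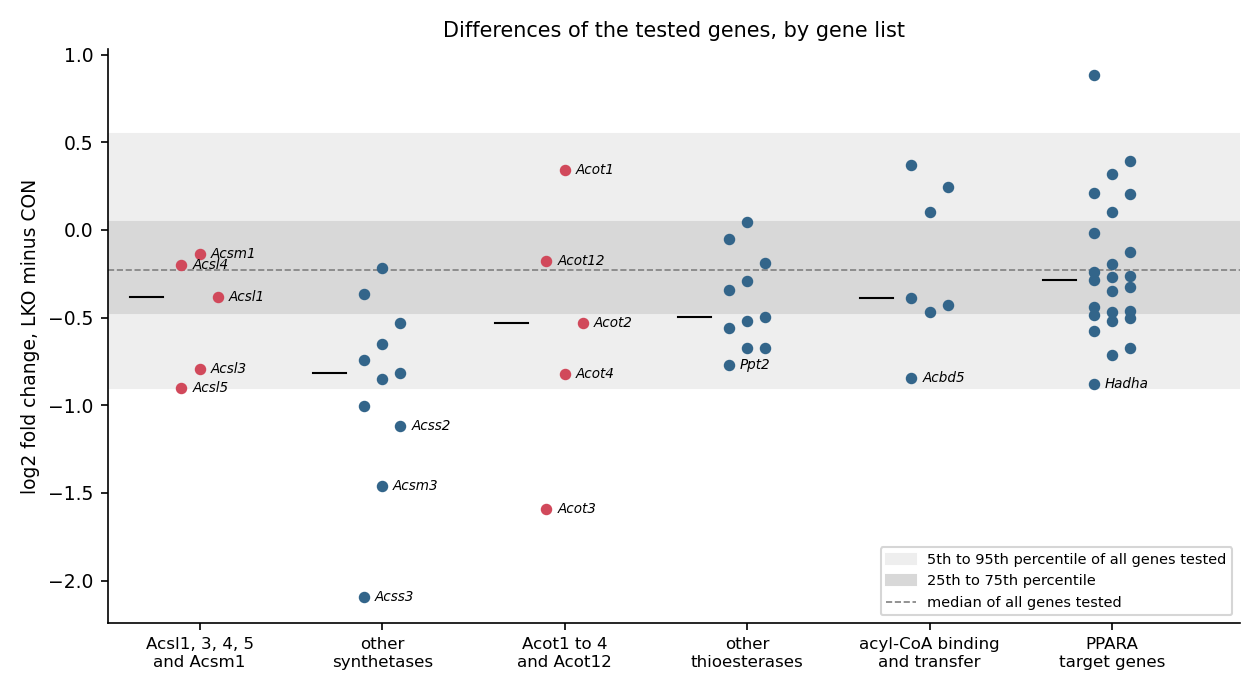
Log2 fold change (LKO minus CON, deposited scale) of every tested gene of the described families, the 10 genes in red and the further lists in blue, with short bars at list medians and grey bands for all genes. Of the 10, Acot3 lies farthest below 0 (-1.59), the 4 lowest of the other synthetases lie below the 5th percentile of all genes (-0.90), and the PPARA targets centre near the median of all genes.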

How the data were processed

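The authors deposited 1 table of FPKM, rounded to 2 decimals, with a gene length in bases beside the 6 libraries. The submitters' processing notes name the aligner HISAT2, StringTie, which estimates transcript levels, and mouse build mm9. The sources used here give no annotation, versions, options or strand setting. The deposited length equals the longest GENCODE M21 transcript for all 10 genes. FPKM times length fell on multiples of 1 step (within 0.1 steps) for at most 21.9% of low values, where chance gives 20%, so whole reads were not recovered, no count model was fitted and the depth is unknown. FPKM of 56534 rows were read, and 2 lines without values were dropped. No coordinates of build mm9 are printed. Promoter sequences come from RefSeq (GRCm38.p6), and coding sequences from GENCODE M21.

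The 11104 genes that averaged 1 FPKM or more were tested as log2(FPKM + 1) with limma 3.58.1 in R 4.3.3 (two-sided, eBayes with trend, group as the only term), with Benjamini-Hochberg adjustment over all genes and a threshold of 0.05. Adjusted p-values and SE come from that fit, and each SD is over a group of 3 libraries. The steps were tested on simulated data. Libraries were also scaled by the median ratio to the geometric mean, or the loess trend of each library with gene length was removed, which also centres it. In all, 17 alternatives were listed at the start and 2 were added after the values were seen.

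The 10 genes and all lists were chosen with earlier results of these data known. The rule for naming genes gives all 10, Cd36, Ppara and, of each list, the 4 tested genes with the smallest p. Lists are described by counts and medians beside those of all genes. No test of a whole list was made.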

Additional observations from a re-analysis of the deposited data

How the results depend on the processing

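The count of genes past the threshold, 1 of 11104, was 0 with a pseudocount of 0.1, with no filter on low values, with a filter at a mean FPKM of 5, with the length trend removed and with the replicate block. Rescaling after removal of mitochondrial genes gave 2, and array weights gave 3072, with LKO 3 at the lowest weight (0.283) and LKO 1 at the highest (2.75). Leaving out 1 library gave 0 to 2632 genes (2632 without LKO 3), and without LKO 3 the count was 1343 with the length trend removed and 2181 with median-ratio scaling, both added after the values were seen. The causes were not tested.

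Of the 10 genes, 0 passed, against 3 (Acsl5, Acot3 and Acot4) with array weights, 0 to 3 when 1 library was left out (3 without LKO 3) and 2 without LKO 3 under median-ratio scaling. The median of the 10 minus that of all genes, -0.23, was -0.43 with no filter, where 24934 genes set the background, and ran from -0.38 (without LKO 1) to -0.090 (without LKO 2) when 1 library was left out, with -0.36 without CON 1, -0.34 without LKO 3 and -0.12 without CON 3. Acsl4 turned to 0.035 with median-ratio scaling, 0.036 with quantile normalization and 0.12 with the length trend removed, and ran from -0.80 to 0.23 when 1 library was left out. Acsm1 turned to 0.16 with median-ratio scaling and 0.046 with the length trend removed, and Acot12 to 0.12, 0.082 and, with quantile normalization, 0.0064. Without LKO 3, median-ratio scaling and length trend removal gave 0.21 and 0.049 for Acsm1 and 0.21 and 0.17 for Acot12. Leaving out 1 library moved Acot2 (-0.53) to between -0.93 (without CON 1) and -0.14 (without CON 3), Acsl1 (-0.38) to between -0.56 (without LKO 3) and -0.15 (without LKO 2), and Acot1 (0.34) to between 0.058 (without CON 1) and 0.52 (without CON 3). All of the 10 but Acsl4, Acsm1 and Acot12 kept their sign in all alternatives, with Acot3 between -1.87 and -0.96, Acot4 between -1.09 and -0.40 and Acsl5 between -1.18 and -0.60. Acsl3 was not tested with the filter at a mean FPKM of 5.

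Deviations from the group means correlated between same-numbered libraries at -0.05, 0.17 and 0.07 for numbers 1, 2 and 3. Between libraries of different number they correlated at -0.16 to 0.06. With 3 libraries per group these values cannot decide whether the shared number is a pairing. The replicate block, with 0 genes called, changed no call of the 10. The unknown depth gives no counting error for any value, and of the 10 genes Acsl4 had the largest SE (0.51) and Acot2 the next (0.41).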
